A study of Mus musculus with 20 samples.

Results

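The miRNAs described here are those of the imprinted Dlk1-Dio3 cluster of the mouse, measured in left ventricles after transverse aortic banding (TAB) and after sham surgery. In TAB the aortic arch is constricted, which loads the ventricle with pressure. The members were chosen by name: every mouse probe without a star in its name whose miRNA number belongs to a list of cluster miRNAs. This gave 67 probes, of which 19 carried a negative scanner flag on every spot of every array and were left out, so that 48 members remained among the 928 mouse miRNAs tested. The animals were male C57BL/6J mice that were 8 weeks old at surgery, operated on under isoflurane anaesthesia. TAB hearts and sham hearts were taken on days 3, 5, 7, 14 and 28, with 2 arrays of Cy5-labelled total RNA for each surgery and day (for the TAB day 14 arrays, the title gives 14 days and another label 15 days, and the title was followed). The repeated arrays are technical replicates, and the number of hearts behind an array is not stated, so each pair of arrays was averaged into 1 sample, which left 5 TAB and 5 sham samples. Whole ventricle was used, and a lower level in a cell type cannot be told apart from fewer cells of that type.

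The Dlk1-Dio3 region is an imprinted domain. The paternal chromosome expresses its protein-coding genes, Dlk1, Rtl1 and Dio3, whereas the maternal chromosome expresses the long noncoding RNAs Meg3, Rian and Mirg together with the miRNAs, which are cut from long transcripts of the same strand. The cluster miRNAs are known mainly from the embryo, the placenta and the brain. A miRNA recognizes its targets mostly through its seed, bases 2 to 8 from the 5′ end, and the hairpin from which it is cut can release a product from either arm. A star in the array's names marks the arm that was named as the less abundant. It was not always the dimmer one here, as miR-1188* had a mean log2 intensity of 9.29 against 8.26 for miR-1188.

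The mature sequences below belong to 11 of the members that passed the test over the 5 days, which are described first below, and to miR-494, which had the highest positive difference of all members without passing it. Sequences and positions are from RefSeq (build GRCm38.p6), where 45 of the 48 members were matched, and not from the array. Array names without an arm were read as the arm that miRBase later gave that name. Capitals mark the seed.
miR-1188: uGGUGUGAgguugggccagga
miR-673-3p: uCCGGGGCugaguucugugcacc
miR-667: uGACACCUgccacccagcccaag
miR-370: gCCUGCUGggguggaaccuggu
miR-540-3p: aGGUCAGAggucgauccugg
miR-770-5p: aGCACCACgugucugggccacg
miR-668: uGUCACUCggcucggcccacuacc
miR-494: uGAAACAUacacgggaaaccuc
miR-127: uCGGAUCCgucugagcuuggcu
miR-379: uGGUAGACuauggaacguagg
miR-544-3p: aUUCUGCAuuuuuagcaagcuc
miR-136: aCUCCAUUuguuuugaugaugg
The first 6 were lowered in TAB hearts, miR-494 was not past the threshold, and the other 5 were raised. No seed was shared among these 12. Over the 45 members with a sequence there were 44 different seeds, and only miR-379 and miR-1193-5p shared one, GGUAGAC.

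All members lay on the plus strand of chromosome 12, between the first base of miR-770-5p and the last base of miR-412-5p (chr12:109563710-109743325, about 180 kb). A gap of 90.7 kb separates 16 upstream members, which end with miR-370, from 32 downstream members, which begin with miR-379. miR-1188 (chr12:109611841-109611861) and miR-370 (chr12:109618305-109618326) lie within the noncoding gene Rian, as does miR-341. miR-770-5p (chr12:109563710-109563731) and miR-770-3p lie within Meg3. A total of 11 members overlap Rtl1, among them miR-127 (chr12:109592888-109592909), miR-136 (chr12:109595331-109595352) and miR-673-3p (chr12:109572044-109572066). miR-127 and miR-136 are known in the mouse as maternally expressed miRNAs antisense to Rtl1 that direct cleavage of its transcript. Mirg holds 6 members, and 26 overlap none of these 4 genes, among them miR-379 (chr12:109709065-109709085), miR-494 (chr12:109715367-109715388), miR-667 (chr12:109720061-109720083) and miR-668 (chr12:109734774-109734797). Whether a miRNA lies in an exon or an intron was not looked up.

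Fewer cluster miRNAs than other miRNAs were free of scanner flags. Each probe had 3 spots, and a miRNA counts as found on an array if 2 or more of them were free of negative flags. By this measure 13 members were found on all 20 arrays, 24 on some of them and 11 on none, whereas 436 of all 928 miRNAs tested (47%) were found on all 20 arrays and 111 (12%) on none. TAB arrays had 14 to 27 members found (median 17.5) and sham arrays 21 to 30 (median 24). A total of 15 members were found on fewer TAB than sham arrays, 6 on more TAB arrays, and 27 on equal numbers. All miRNAs together were also found less often on TAB arrays (median 521.5, against 636 on sham arrays). The 48 members had a median raw intensity between 78 and 94.5 on the TAB arrays and between 88 and 110.5 on the sham arrays, against 65 to 73 for the empty spots of TAB arrays and 68 to 74 for those of sham arrays. The flags were stricter than the empty spots, since 40 to 47 members on each TAB array (median 42) and 43 to 47 on each sham array (median 45.5) read above the 95th percentile of that array's empty spots.

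The array images differed between the surgeries as a whole. Over all miRNAs, the 75th percentile of the raw intensities ranged from 180 to 288 across TAB arrays and from 303 to 444 across sham arrays, with no overlap, and each TAB array had 490 to 648 miRNAs found, against 570 to 698 on each sham array. All values below are log2 intensities after quantile normalization of the 20 arrays, which gives every array the same distribution. With other scalings the median difference of all miRNAs, -0.02 here, became 0.40 when arrays were scaled to their 75th percentile and 0.40 in the deposited processed table, but -0.25 with no scaling and -0.25 when the quantiles were set separately for each surgery. A direction below is therefore relative to the other miRNAs on the array, and without this reference most members with small differences turned sign between scalings, as is given for the members whose direction is described. Relative to the median of all miRNAs, the 75th percentile scaling and no scaling give the same values by construction, since they differ by a constant per array. The processed table and quantiles set per surgery gave nearly these values too, so agreement among them does not count as separate checks. The first principal component over all miRNAs held 62.4% of the variance and separated TAB from sham arrays, and on it both sham day 14 arrays lay nearer to the TAB arrays than the other sham arrays did, at 1.31 and 2.16 against 6.78 to 8.06. The part of brightness, scaling and these arrays in the results was not tested beyond the alternatives given. The labels name no slide or hybridization batch, and a batch that coincided with a surgery cannot be told apart from it.

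Over the 5 days, 9 of the 48 members were raised and 7 lowered in TAB hearts, and 32 (of 48) did not pass the test (limma with day as a block, Benjamini-Hochberg adjusted p below 0.05 over 928 miRNAs). Among all miRNAs tested, 19.3% were raised and 21.8% lowered (41.1% in either direction), so the members' shares are near the background. The median TAB minus sham difference was 0.02 among the members and -0.02 among all miRNAs. The error here comes from how the difference varied between days, and it therefore holds changes over time as well as the spread between samples. Without day 14, which leaves out the sham arrays that stood apart, the counts were also 9 raised and 7 lowered. They fell to 5 raised without the arrays numbered 1, without day 3 or without day 7, to 4 raised without the arrays numbered 2, and to 4 lowered without day 3, day 5 or day 28. The shares of all miRNAs were not computed for these smaller sets, so the fall cannot be compared with that of other miRNAs. In 9 members every TAB sample lay above every sham sample and in 7 every TAB sample lay below, against a background of 15.9% and 16.2%.

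**Figure D1:**
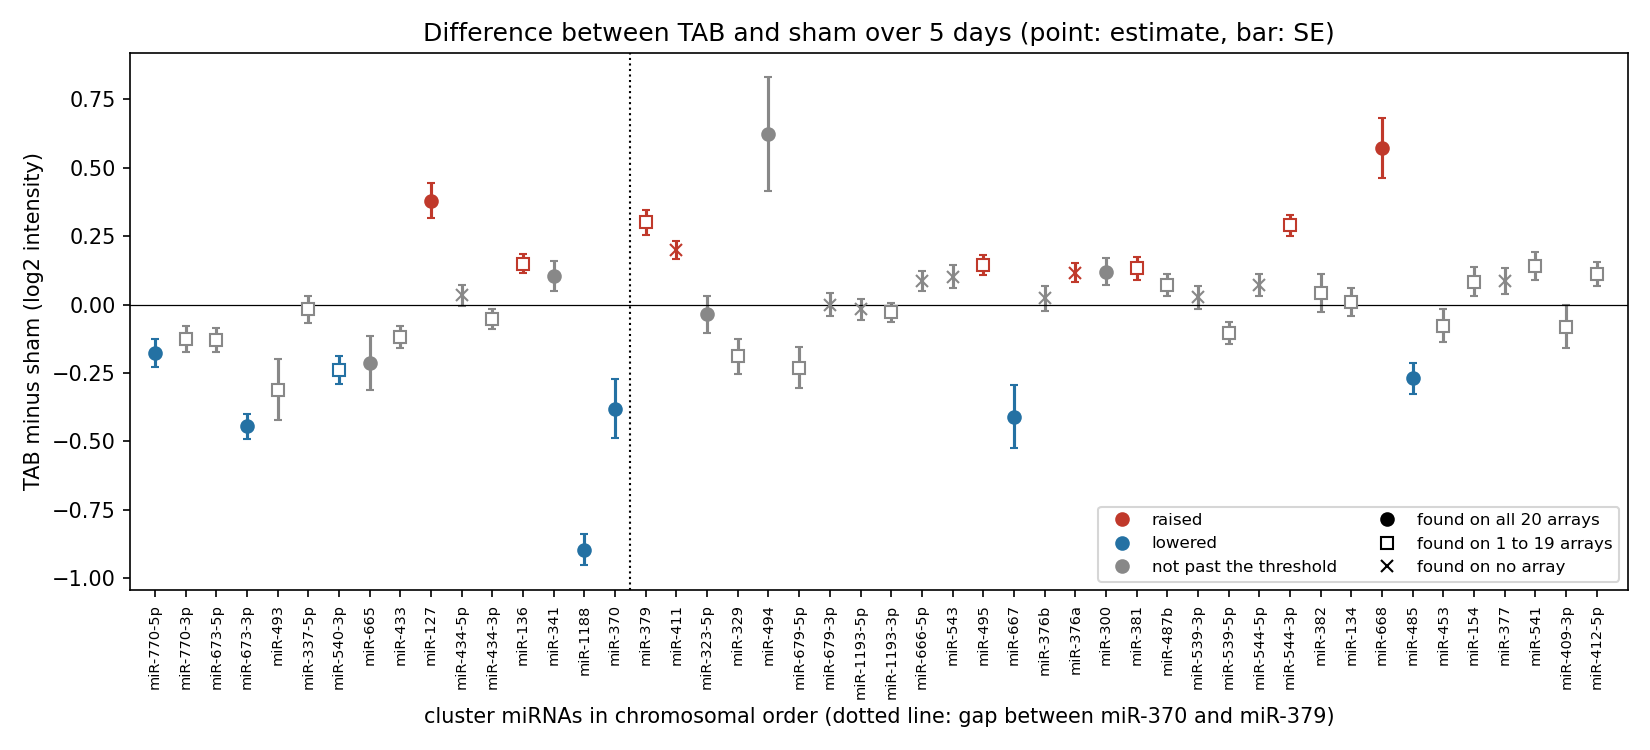
TAB minus sham difference over the 5 days (log2 intensity, point and SE) of the 48 cluster miRNAs in chromosomal order, where colour gives the call, and marker shape on how many arrays the miRNA was found. Of the 7 lowered miRNAs, 5 lie left of the dotted line that marks the gap after miR-370, and miR-1188 is the lowest at -0.90.

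miR-1188 was lowered more than any other member. Its log2 intensity was 7.71, 7.75, 7.95, 7.90 and 7.73 in TAB hearts on days 3, 5, 7, 14 and 28, against 8.53, 8.74, 8.67, 8.93 and 8.65 in sham hearts. The groups did not overlap, and the sham level was 1.86-fold the TAB level (difference -0.90 ± 0.06, SE, adjusted p = 0.000697). The raw intensities, before any scaling, were 157 to 247 (median 188.5) on the 10 TAB arrays and 441 to 669 (median 514) on the 10 sham arrays, which also did not overlap. Of the 16 members that passed the test, miR-1188 alone kept its call in all 19 alternatives to the processing. Relative to the median of all miRNAs, its difference was -0.88 here and -1.24 with each of the other 4 scalings.

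miR-673-3p had log2 intensities of 7.15, 7.10, 7.05, 7.03 and 7.11 in TAB hearts on the 5 days, against 7.50, 7.70, 7.46, 7.45 and 7.56 in sham hearts. Every TAB sample was below every sham sample, with a difference of -0.45 ± 0.05 (SE, adjusted p = 0.00224). The TAB samples lay close together. The call was lost when arrays were scaled to their 75th percentile (-0.19, adjusted p = 0.0927) and in the processed table (-0.21, adjusted p = 0.063). Its partner from the other arm of the same hairpin, miR-673-5p, was found on 2 TAB and 6 sham arrays and differed by -0.13 ± 0.04 (SE, adjusted p = 0.0614), with the opposite sign under the 75th percentile scaling (0.32) and in the processed table (0.31).

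miR-667 and miR-370 were lowered with more variation between days. miR-667 had 10.37, 10.48, 10.70, 10.53 and 10.27 in TAB hearts on the 5 days, against 11.18, 10.94, 10.86, 10.60 and 10.82 in sham hearts. TAB was lower on every day, but the TAB day 7 sample lay above the sham day 14 sample, and the difference was -0.41 ± 0.11 (SE, adjusted p = 0.034). miR-370, known in human liver cells as a regulator of the fatty acid oxidation gene CPT1A, had 7.63, 7.46, 7.83, 7.41 and 7.62 in TAB hearts on the 5 days, against 7.85, 7.99, 7.82, 8.11 and 8.08 in sham hearts. The TAB day 7 sample lay level with its sham counterpart, and the difference was -0.38 ± 0.11 (SE, adjusted p = 0.0356). Both calls depended on single days, and that of miR-667 was lost without day 3, 5, 7 or 28 (adjusted p of 0.0516 to 0.0971), and that of miR-370 without any of days 3, 5, 14 and 28 (0.067 to 0.103) and without the arrays numbered 1 (0.0521). The call of miR-370 was also lost when arrays were scaled to their 75th percentile (-0.21, adjusted p = 0.11) and in the processed table (-0.22, adjusted p = 0.11).

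miR-485, miR-540-3p and miR-770-5p were lowered by less. miR-485, known in rat neurons as a regulator of synaptic proteins, had 7.50, 7.43, 7.53, 7.31 and 7.33 in TAB hearts on the 5 days, against 7.73, 7.72, 7.62, 7.61 and 7.76 in sham hearts. The groups did not overlap (difference -0.27 ± 0.06, SE, adjusted p = 0.0143), but with the 75th percentile scaling the difference shrank to -0.05 (adjusted p = 0.661). miR-540-3p had 6.57, 6.79, 6.77, 6.62 and 6.59 in TAB hearts on the 5 days, against 6.85, 6.91, 6.88, 6.92 and 6.96 in sham hearts. Here too the groups were apart (-0.24 ± 0.05, SE, adjusted p = 0.0161), although the sign turned under the 75th percentile scaling (0.07) and in the processed table (0.08). miR-770-5p had 7.27, 7.30, 7.32, 7.17 and 7.34 in TAB hearts on the 5 days, against 7.43, 7.54, 7.31, 7.44 and 7.56 in sham hearts. The groups overlapped (-0.18 ± 0.05, SE, adjusted p = 0.0376), and the sign turned to 0.06 under the same 2 settings. The call of miR-770-5p was lost without any of days 3, 5, 14 and 28 and without the arrays numbered 1 or 2 (adjusted p of 0.0613 to 0.145), and that of miR-540-3p without day 3 (0.0592) and without the arrays numbered 2 (0.114). Relative to the median of all miRNAs these 3 differences were negative under all 5 scalings, between -0.45 and -0.16.

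Among the raised members, miR-668 had the highest difference. It had 9.68, 9.65, 9.76, 9.81 and 9.70 in TAB hearts on the 5 days, against 8.73, 9.38, 9.11, 9.11 and 9.40 in sham hearts. The TAB samples lay close together above all sham samples, and TAB was 1.49-fold the sham level (0.57 ± 0.11, SE, adjusted p = 0.0114). The difference was -0.18 with no scaling and -0.19 with quantiles set per surgery. Relative to the median of all miRNAs, it was 0.59 here but only 0.06 to 0.07 with the other 4 scalings, so the size of the rise depended on the quantile normalization. The repeated arrays of a sample also differed more for miR-668 than for other members (SD between arrays 0.38, against a median of 0.08 over the members), and without the arrays numbered 2 the difference was 0.41 (adjusted p = 0.0714).

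miR-127 and miR-379 held their direction under every scaling. miR-127 had 7.01, 7.28, 7.29, 7.18 and 7.12 in TAB hearts on the 5 days, against 6.71, 6.69, 6.94, 6.98 and 6.66 in sham hearts. The highest sham sample, day 14, lay just below the lowest TAB sample, day 3, and TAB was 1.30-fold the sham level (0.38 ± 0.06, SE, adjusted p = 0.00762). miR-379, the first miRNA of the downstream group, had 6.83, 6.91, 6.91, 6.78 and 6.73 in TAB hearts on the 5 days, against 6.49, 6.53, 6.56, 6.51 and 6.57 in sham hearts. It was found on 9 TAB and 7 sham arrays, the groups did not overlap, and TAB was 1.23-fold the sham level (0.30 ± 0.05, SE, adjusted p = 0.00563). Both differences were 0.01 with no scaling, with adjusted p of 0.92 for miR-127 and 0.913 for miR-379. Before any scaling, miR-127 read 99 to 149 (median 128) across the TAB arrays, against 105 to 159 (median 125) across the sham arrays.

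**Figure D2:**
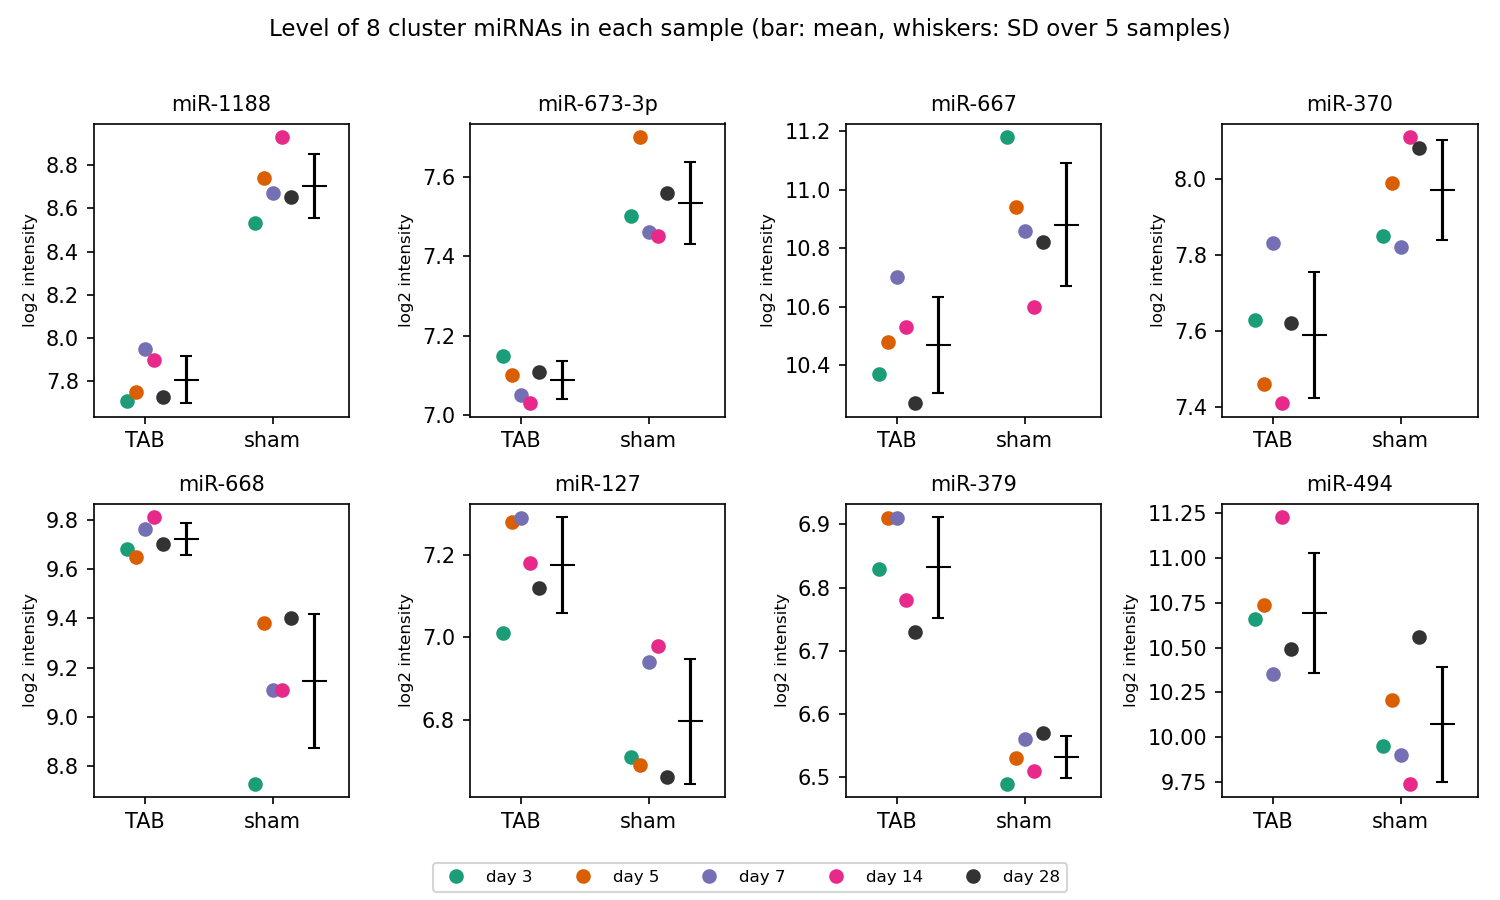
Log2 intensity after quantile normalization (y axis, its range set for each panel) of 8 cluster miRNAs in the TAB and sham samples, coloured by day, with mean and SD over 5 samples. miR-1188, miR-673-3p, miR-668, miR-127 and miR-379 show no overlap between the groups, whereas miR-667, miR-370 and miR-494 overlap.

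The other raised members were found on few arrays or none. miR-544-3p had 6.65, 6.70, 6.69, 6.78 and 6.72 in TAB hearts on the 5 days, against 6.41, 6.46, 6.41, 6.38 and 6.44 in sham hearts, and the groups did not overlap (0.29 ± 0.04, SE, adjusted p = 0.00446). It was found on only 3 TAB arrays and 1 sham array, and before scaling it read 86 to 109 across the TAB arrays, against 85 to 111 across the sham arrays. With no scaling its difference was 0.04 (adjusted p = 0.679). miR-136 had 6.61, 6.54, 6.59, 6.62 and 6.65 in TAB hearts on the 5 days, against 6.43, 6.43, 6.45, 6.49 and 6.46 in sham hearts (0.15 ± 0.03, SE, adjusted p = 0.0181). It was found on 3 TAB and 2 sham arrays, and its difference was -0.07 with no scaling and -0.08 with quantiles set per surgery. Its call was lost without any of days 3, 7 and 28 and without the arrays numbered 1 or 2 (adjusted p of 0.0586 to 0.0704).

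miR-495 and miR-381 were raised by still smaller amounts. miR-495 had 6.43, 6.44, 6.54, 6.43 and 6.50 in TAB hearts on the 5 days, against 6.32, 6.36, 6.33, 6.29 and 6.32 in sham hearts (0.14 ± 0.04, SE, adjusted p = 0.0267), and was found on 1 array of each surgery. miR-381 had 6.44, 6.51, 6.49, 6.42 and 6.40 in TAB hearts on the 5 days, against 6.34, 6.27, 6.31, 6.37 and 6.31 in sham hearts (adjusted p = 0.0495). It was found on 2 TAB arrays and on no sham array. The mean of the TAB samples was 1.08-fold the sham mean when sham arrays were given no less than the lowest found miRNA of that array. Most TAB arrays lacked a find as well, so this fold is not a minimum of the rise. Both differences were slightly negative with no scaling, at -0.03 for miR-495 and -0.04 for miR-381, and both calls were lost without the arrays numbered 1 or 2 and without any of days 3, 7 and 28 (adjusted p of 0.0688 to 0.208), that of miR-381 also without day 5 (0.127).

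miR-411 and miR-376a passed the test without being found on any array. miR-411 had 6.48, 6.51, 6.44, 6.48 and 6.39 in TAB hearts on the 5 days, against 6.28, 6.29, 6.24, 6.29 and 6.21 in sham hearts, with no overlap (adjusted p = 0.00664). miR-376a, whose family is known in mouse and human for A-to-I editing of its seed, had 6.55, 6.37, 6.47, 6.36 and 6.36 in TAB hearts on the 5 days, against 6.36, 6.30, 6.35, 6.27 and 6.26 in sham hearts (adjusted p = 0.0442). The call of miR-376a was lost without any single day and without the arrays numbered 1 or 2 (adjusted p of 0.0647 to 0.223). With no scaling the difference was 0.03 for miR-411 (adjusted p = 0.644) and -0.05 for miR-376a (adjusted p = 0.514). Both carried negative flags in both groups, so no fold is given, although miR-411 read above the 95th percentile of the empty spots on 10 TAB and 8 sham arrays and miR-376a on all 10 of each. Among the 111 miRNAs that were found on no array, 8.11% were called raised and 0.901% lowered, against 2 raised and 0 lowered of the 11 members there (limma, with 0 lowered also at an unadjusted p below 0.05).

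The calls were then split by detection. Among the 13 members found on all 20 arrays, 2 were raised, 6 lowered and 5 not called, with a median difference of -0.18. Among the 436 miRNAs of any kind found on all 20 arrays, 27.5% were raised and 29.6% lowered, with a median of -0.04. Relative to the median of all 928 miRNAs, the median of these 13 members was -0.16 with quantile normalization and -0.34 with the 75th percentile scaling, no scaling, and the processed table. Among the 24 members found on some arrays, 5 were raised and 1 lowered, against 13.1% raised and 18.9% lowered of all 381 miRNAs found on some arrays.

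Of the 5 members found on every array that did not pass the test, miR-494 had the highest difference. miR-494, known in the mouse heart for protection against ischemic injury, had 10.66, 10.74, 10.35, 11.23 and 10.49 in TAB hearts on the 5 days, against 9.95, 10.21, 9.90, 9.74 and 10.56 in sham hearts. TAB was higher on 4 days and sham slightly higher on day 28, and the difference was 0.62 ± 0.21 (SE, adjusted p = 0.0573). Without day 28 the test was passed, and with no scaling the difference was -0.05. miR-665 had 10.38, 10.50, 10.05, 10.14 and 10.27 in TAB hearts on the 5 days, against 10.49, 10.39, 10.60, 10.26 and 10.68 in sham hearts, with overlap and a difference of -0.21 ± 0.10 (SE, adjusted p = 0.137).

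The other 3 of these overlapped between the groups. miR-323-5p had 7.36, 7.39, 7.35, 7.21 and 7.32 in TAB hearts on the 5 days, against 7.36, 7.19, 7.36, 7.34 and 7.57 in sham hearts (difference -0.04 ± 0.07, SE, adjusted p = 0.705). miR-341 had 7.07, 7.13, 7.09, 7.01 and 7.07 in TAB hearts on the 5 days, against 7.00, 6.87, 6.91, 6.95 and 7.12 in sham hearts (0.10 ± 0.05, SE, adjusted p = 0.175). miR-300 had 7.17, 7.04, 7.05, 7.01 and 6.87 in TAB hearts on the 5 days, against a narrow 6.92, 6.90, 6.93, 6.89 and 6.90 in sham hearts (0.12 ± 0.05, SE, adjusted p = 0.0958). For miR-300 every TAB sample except that of day 28 lay above all sham samples. For miR-341 and miR-300 the sign turned with no scaling and with quantiles set per surgery.

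Some members were found on nearly all sham arrays and on fewer TAB arrays without passing the test. miR-493 was found on 5 TAB and 10 sham arrays and had 6.74, 6.46, 6.63, 7.01 and 6.58 in TAB hearts on the 5 days, against 7.00, 7.14, 6.91, 6.90 and 7.03 in sham hearts (-0.31 ± 0.11, SE, adjusted p = 0.0698). Only the TAB day 14 sample reached the sham levels, and without day 14 the test was passed. miR-679-5p was found on 1 TAB and 10 sham arrays and had 6.60, 6.34, 6.62, 6.49 and 6.44 in TAB hearts on the 5 days, against 6.61, 6.84, 6.79, 6.67 and 6.73 in sham hearts (-0.23 ± 0.07, SE, adjusted p = 0.0508). It overlapped between the groups only through sham day 3. miR-329 was found on 2 TAB and 9 sham arrays and had 6.42, 6.43, 6.35, 6.50 and 6.44 in TAB hearts on the 5 days, against 6.78, 6.65, 6.59, 6.45 and 6.63 in sham hearts (-0.19 ± 0.06, SE, adjusted p = 0.0601).

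For miR-337-5p, miR-453, miR-770-3p and miR-134 the 2 groups lay closer together. miR-337-5p, found on 1 TAB and 9 sham arrays, had 6.60, 6.57, 6.62, 6.48 and 6.46 in TAB hearts on the 5 days, against 6.62, 6.57, 6.58, 6.41 and 6.64 in sham hearts, a difference of -0.02 ± 0.05 (SE). miR-453, found on 2 TAB and 8 sham arrays, had 6.38, 6.40, 6.37, 6.46 and 6.59 in TAB hearts on the 5 days, against 6.55, 6.59, 6.52, 6.32 and 6.61 in sham hearts, a difference of -0.08 ± 0.06 (SE). Both miRNAs overlapped between the groups. miR-770-3p, found on 6 TAB and 10 sham arrays, had 6.92, 6.77, 6.73, 6.81 and 6.88 in TAB hearts on the 5 days, against 6.90, 6.95, 6.92, 7.01 and 6.97 in sham hearts (-0.13 ± 0.05, SE, adjusted p = 0.079). miR-134, known from rat hippocampal neurons as a brake on dendritic spine growth, was found on 9 TAB and 10 sham arrays and had 6.79, 6.73, 6.84, 6.68 and 6.80 in TAB hearts on the 5 days, against 6.74, 6.67, 6.73, 6.85 and 6.79 in sham hearts (0.01 ± 0.05, SE, adjusted p = 0.906). The remaining 18 members, which did not pass the test and are not described singly, had differences between -0.10 and 0.14, and 9 of them were found on no array.

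The calls are given here for the upstream and downstream members, beside a background of 19.3% raised and 21.8% lowered. Of the 16 upstream members 2 were raised (miR-127 and miR-136) and 5 lowered (miR-770-5p, miR-673-3p, miR-540-3p, miR-1188 and miR-370), with a median difference of -0.13. Of the 32 downstream members 7 were raised and 2 lowered (miR-667 and miR-485), with a median of 0.07. Detection differed too, and 7 upstream and 6 downstream members were found on all 20 arrays, and 1 upstream and 10 downstream members on none. Neighbours moved apart in several places: miR-341 and miR-1188, both within Rian, differed by 0.10 and -0.90, and the 11 members that overlap Rtl1 ranged from -0.45 for miR-673-3p to 0.38 for miR-127. Members of a cluster share a transcript and are not independent, and the difference between the groups of members was not tested.

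Base composition went with detection and with the difference across the members. The median GC content of the mature sequence was 65.2% for members found on all 20 arrays, 50% for those found on some and 46.5% for those found on none. Across the 45 members with a sequence, GC content correlated with the TAB minus sham difference at r = -0.367 (Spearman's rho -0.461). Across 257 other miRNAs whose array name matched RefSeq, GC content correlated with this difference at r = 0.111 (rho 0.0478). Both correlations describe miRNAs that share the same arrays and are given without a test. In the sequences above, the lowered members have a GC content from 60% (miR-540-3p) to 68.2% (miR-370 and miR-770-5p). The raised members have 36.4% (miR-544-3p and miR-136), 47.6% (miR-379), 59.1% (miR-127) and 66.7% (miR-668), so the raised and lowered members overlap.

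The products of both arms were compared for 6 hairpins, in which each arm was found on every sham array. Other hairpins also had both arms on the array and were not compared in this way. Among them was miR-494, with a difference of 0.62, whose other arm miR-494* differed by -0.23 and was found on 1 TAB and 8 sham arrays. The other arms of miR-668, miR-667 and miR-1188 are given here because their changes were set against those of the members above, again with the seed in capitals.
miR-668*: gUAAGUGUgccucgggugagcaug
miR-667*: cGGUGCUGguggagcagugagcacg
miR-1188*: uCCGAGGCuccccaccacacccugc
Each of these has a seed different from that of its partner. miR-668* had 6.55, 6.53, 6.48, 6.53 and 6.71 in TAB hearts on the 5 days, against 6.86, 6.90, 6.96, 7.00 and 6.82 in sham hearts, and was lowered (-0.35 ± 0.06, SE, adjusted p = 0.01), opposite to miR-668. With the 75th percentile scaling the difference of miR-668* shrank to -0.005 (adjusted p = 0.971), while relative to the median of all miRNAs it was -0.33 here and -0.40 with that scaling. The change of miR-668 exceeded that of miR-668* on all 5 days, by 0.92 on average (SD 0.38, n = 5, exact sign-flip permutation test over days, p = 0.0625, which is the smallest p that 5 days allow). Without scaling this difference of changes was 0.47 (SD 0.46).

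miR-667* was lowered more than any other star strand. It had 7.53, 7.45, 7.52, 7.54 and 7.62 in TAB hearts on the 5 days, against 8.06, 8.36, 8.34, 8.51 and 8.90 in sham hearts (-0.90 ± 0.10, SE, adjusted p = 0.00279), and it kept this call under all 5 scalings. Both arms of this hairpin were thus lowered, and the change of miR-667 was the less negative on 4 of 5 days, by 0.49 on average (SD 0.46, exact p = 0.125). miR-1188* had 9.24, 9.38, 9.19, 9.05 and 9.05 in TAB hearts on the 5 days, against 9.65, 9.31, 9.52, 9.05 and 9.47 in sham hearts, and did not pass the test (-0.22 ± 0.09, SE, adjusted p = 0.102). Under each of the other 4 scalings miR-1188* was lowered, for example by -0.31 (adjusted p = 0.0236) with the 75th percentile scaling. The change of miR-1188 lay below that of miR-1188* on all 5 days, with an average difference of -0.68 (SD 0.34, exact p = 0.0625).

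For the other 3 hairpins the arms differed less after quantile normalization, but without scaling the arms of miR-665 differed most of the 6 hairpins, by -0.56 (SD 0.35), against -0.53 (SD 0.41) for miR-1188 and 0.40 (SD 0.47) for miR-667. miR-665* had 6.97, 6.89, 6.91, 6.81 and 6.77 in TAB hearts on the 5 days, against 6.95, 6.92, 6.81, 6.79 and 6.81 in sham hearts, and the change of miR-665 minus that of miR-665* was -0.23 (SD 0.29, exact p = 0.188). miR-485* had 6.85, 6.94, 6.77, 6.68 and 6.77 in TAB hearts on the 5 days, against 6.87, 6.82, 6.80, 6.79 and 6.84 in sham hearts, and the change of miR-485 minus that of miR-485* was -0.24 (SD 0.15, exact p = 0.0625). The difference of miR-485* itself was -0.03 here but 0.28 with the 75th percentile scaling and in the processed table, and that of miR-665* 0.02 here but -0.33 with no scaling and with quantiles set per surgery. The arms of miR-770 differed by -0.05 (SD 0.15, exact p = 0.5). With p-values adjusted over the 6 hairpins, the lowest was 0.125, so no difference between arms passed a threshold of 0.05, which 5 days could not have reached in a two-sided exact test.

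**Figure D3:**
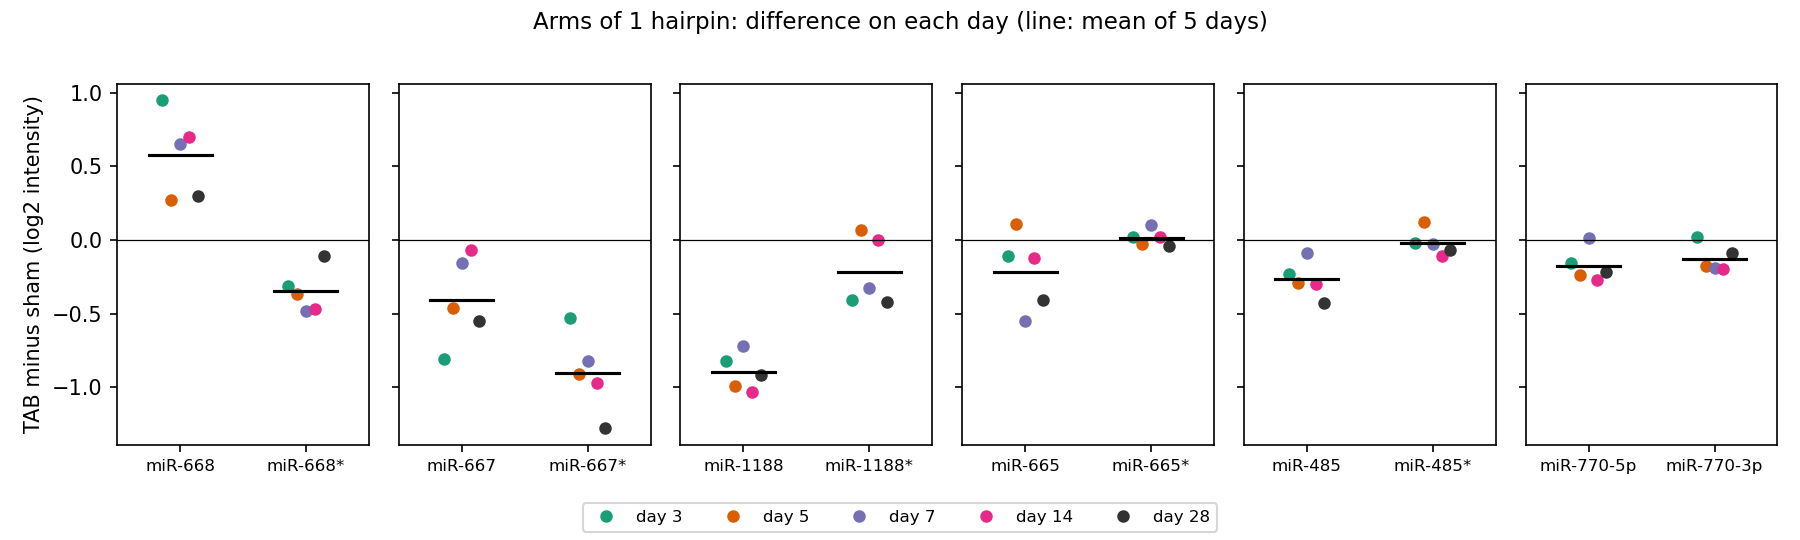
TAB minus sham difference (log2 intensity) on each of the 5 days for both arms of 6 hairpins, with a line at the mean of the 5 days. miR-668 lies above 0 and miR-668* below 0 on every day, and both arms of miR-667 lie below 0.

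Of the 26 star strands of the cluster that passed the flag filter, 1 was raised and 6 lowered (background 19.3% and 21.8%), with a median difference of -0.01. Beside miR-667* and miR-668*, the lowered ones were miR-494*, miR-329*, miR-758* and miR-410*, each found on 0 or 1 TAB array and on 6 to 8 sham arrays. The raised one was miR-376a*, which was found on no array. Relative to the median of all miRNAs these 7 kept their signs under the 5 scalings, but without this reference miR-494*, miR-329*, miR-758* and miR-410* turned to between 0.23 and 0.30 with the 75th percentile scaling and in the processed table, and miR-376a* to between -0.03 and -0.02 with no scaling and with quantiles set per surgery. Relative to that median, miR-376a* lay at 0.22 with no scaling, beside 0.20 for miR-379*, which was not called. A total of 13 star strands were found on fewer TAB than sham arrays and 1 on more. Over all miRNAs, too, TAB arrays had fewer found, with a median of 521.5 against 636 on sham arrays.

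The days were then tested separately, with the spread between repeated arrays as the error, so that each test compares the RNA samples of that day and not the surgeries in general. On day 3, 9 members were raised and 5 lowered (background 17.7% and 17.8%). On day 5 there were 7 raised and 9 lowered (19.1% and 20.5%), on day 7 5 raised and 5 lowered (17.6% and 16.2%), on day 14 4 raised and 6 lowered (12.3% and 14.3%), and on day 28 3 raised and 8 lowered (18.1% and 23.2%). Raised members were thus fewer on later days in these samples, without a test of that order. In all, 15 members were raised and 15 lowered on at least 1 day, 18 were called on no day, and none was raised on 1 day and lowered on another. Of all 928 miRNAs, 31.1% were raised and 38% lowered on at least 1 day, and 34.1% were called on no day.

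miR-1188 was lowered on all 5 days, by differences of -0.81, -0.996, -0.72, -1.03 and -0.92 on days 3, 5, 7, 14 and 28. miR-544-3p was raised on all 5 days, by 0.24, 0.24, 0.28, 0.40 and 0.28. miR-379 was raised on every day except day 28, when its difference was 0.15 (adjusted p = 0.196). miR-673-3p was lowered on every day except day 3, when its difference was -0.35 (adjusted p = 0.0747).

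A few members held the highest and lowest differences on most days. On day 3 the highest were miR-668 (0.95, adjusted p = 0.0425) and miR-494 (0.71, adjusted p = 0.000601), and the lowest miR-1188 and miR-667 (-0.81, adjusted p = 0.000136). On day 5 miR-127 (0.59, adjusted p = 0.00271) and miR-494 (0.53) were highest, and miR-1188 and miR-493 (-0.67) lowest. On day 7 the highest were miR-668 (0.65, adjusted p = 0.16) and miR-494 (0.45), and the lowest miR-1188 and miR-665 (-0.54, adjusted p = 0.124), so that miR-668 and miR-665 did not pass the test that day. On day 14 miR-494 stood out with 1.48 (adjusted p = 3.79e-06), ahead of miR-668 (0.70, adjusted p = 0.143), and miR-370 (-0.71) followed miR-1188 at the low end. On day 28 the highest were miR-127 (0.46) and miR-668 (0.29, adjusted p = 0.521) and the lowest miR-1188 and miR-667 (-0.55).

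**Figure D4:**
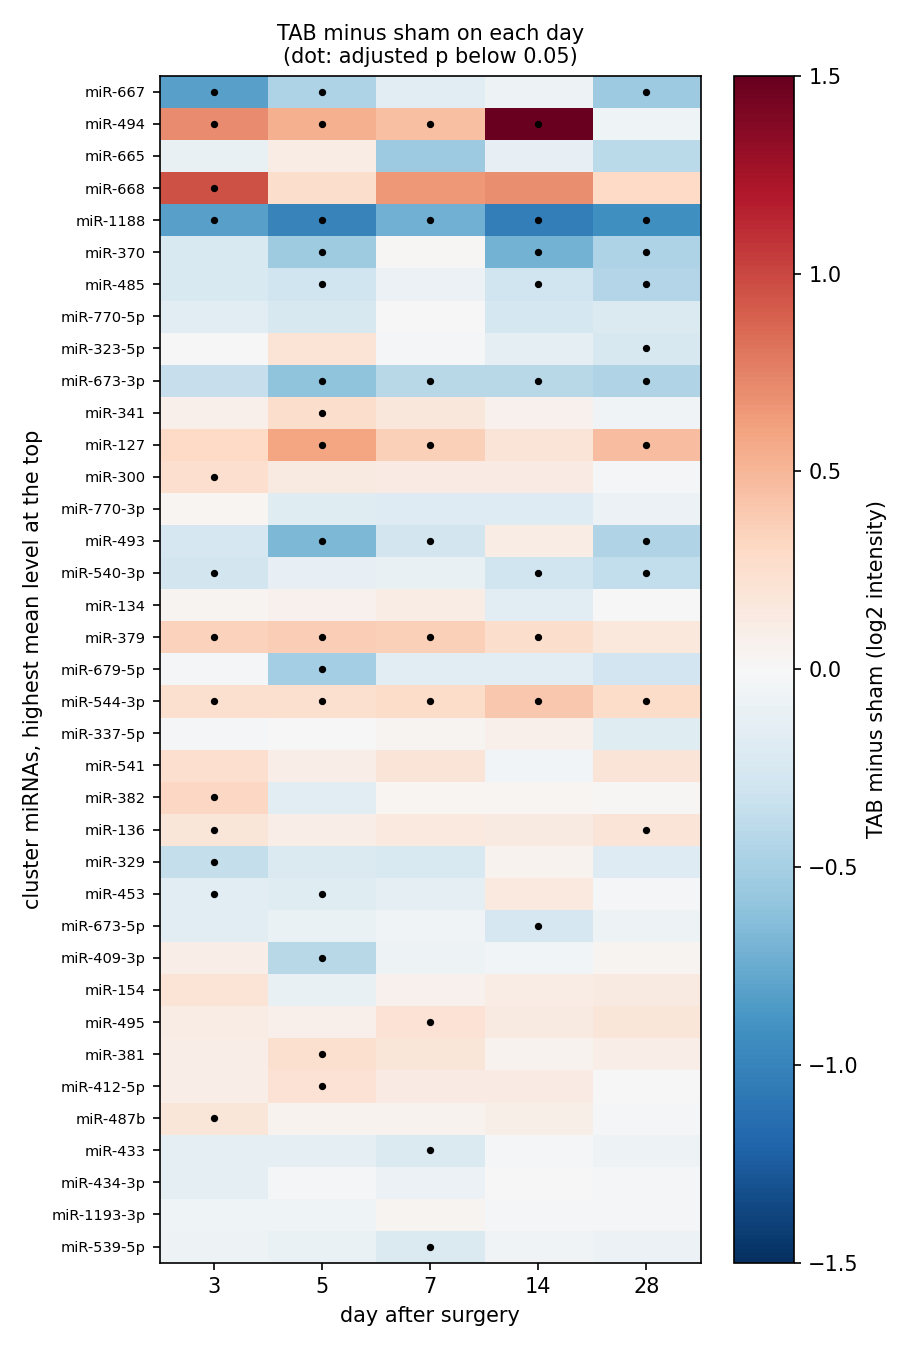
TAB minus sham difference (colour, log2 intensity) on each day for the 37 members found on at least 1 array, ordered by mean intensity, with a dot where the day's adjusted p was below 0.05. miR-1188 is lower and miR-544-3p higher on all 5 days, and miR-494 is highest on day 14.

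The late effect, the mean difference of days 14 and 28, did not differ from the early effect, that of days 3, 5 and 7, for any member after adjustment (limma, lowest adjusted p = 0.699). At an unadjusted p below 0.05 there was 1 member, beside 58 of the 928 miRNAs (6.25%), none of which passed after adjustment. That member was miR-453, with a mean difference of 0.06 late and -0.17 early (late minus early 0.23 ± 0.08, SE). In the order of limma's statistic the next members with a higher late effect were miR-329, with -0.07 late and -0.27 early, and miR-433, with -0.05 late and -0.16 early. miR-433, found on 2 sham arrays and no TAB array, had 6.18, 6.24, 6.19, 6.30 and 6.29 in TAB hearts on the 5 days, against 6.31, 6.37, 6.41, 6.33 and 6.37 in sham hearts. Over the 5 days its difference was -0.12 here but 0.38 with the 75th percentile scaling and in the processed table (adjusted p = 0.00245 and 0.00239). By the same statistic the members furthest the other way were miR-323-5p, with -0.19 late and 0.06 early, miR-379, with 0.21 late and 0.36 early, and miR-540-3p, with -0.34 late and -0.17 early.

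The rule of the study's methods, which takes a miRNA as changed if its log2 ratio on a day is more than 2 standard deviations out among the ratios of all miRNAs, picked few members. On day 3 it picked 1 member as higher, miR-668 (background 3.23% higher and 3.99% lower). On day 14 it picked miR-494 as higher (2.69%) and miR-1188 and miR-370 as lower (2.48%). On the other days it picked 0 members, beside a background of 4.2% higher and 2.48% lower on day 5, 3.77% and 3.34% on day 7, and 4.85% and 1.51% on day 28.

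The scaling decided how many members passed in each direction. With the 75th percentile scaling 36 members were raised and 2 lowered, beside 593 raised and 110 lowered of all 928 miRNAs. The processed values gave the same member counts, beside 592 and 113 of all miRNAs. With no scaling 0 members were raised and 21 lowered, beside 27 and 500 of all miRNAs. With quantiles set per surgery 0 members were raised and 29 lowered, beside 37 and 634 of all miRNAs. Raised miRNAs made up 47% of all calls with quantile normalization, 84.4% with the 75th percentile scaling, 84% in the processed table, 5.12% with no scaling and 5.51% with quantiles set per surgery. Relative to the median of all miRNAs, all 16 called members kept the same sign under the 5 scalings, and among those not called the sign changed for miR-341, miR-300, miR-134, miR-539-5p, miR-434-3p, miR-1193-5p and miR-1193-3p. A kept positive sign does not set weakly read members apart. With no scaling, miR-376a and miR-381 lay at 0.20 and 0.21 relative to that median. miR-377 and miR-544-5p, which were found on no array and not called, lay at 0.20 and 0.18. On this relative scale the 75th percentile scaling and no scaling are the same by construction. The processed table and quantiles set per surgery lay close to them, so the 5 scalings are not 5 separate checks.

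**Figure D5:**
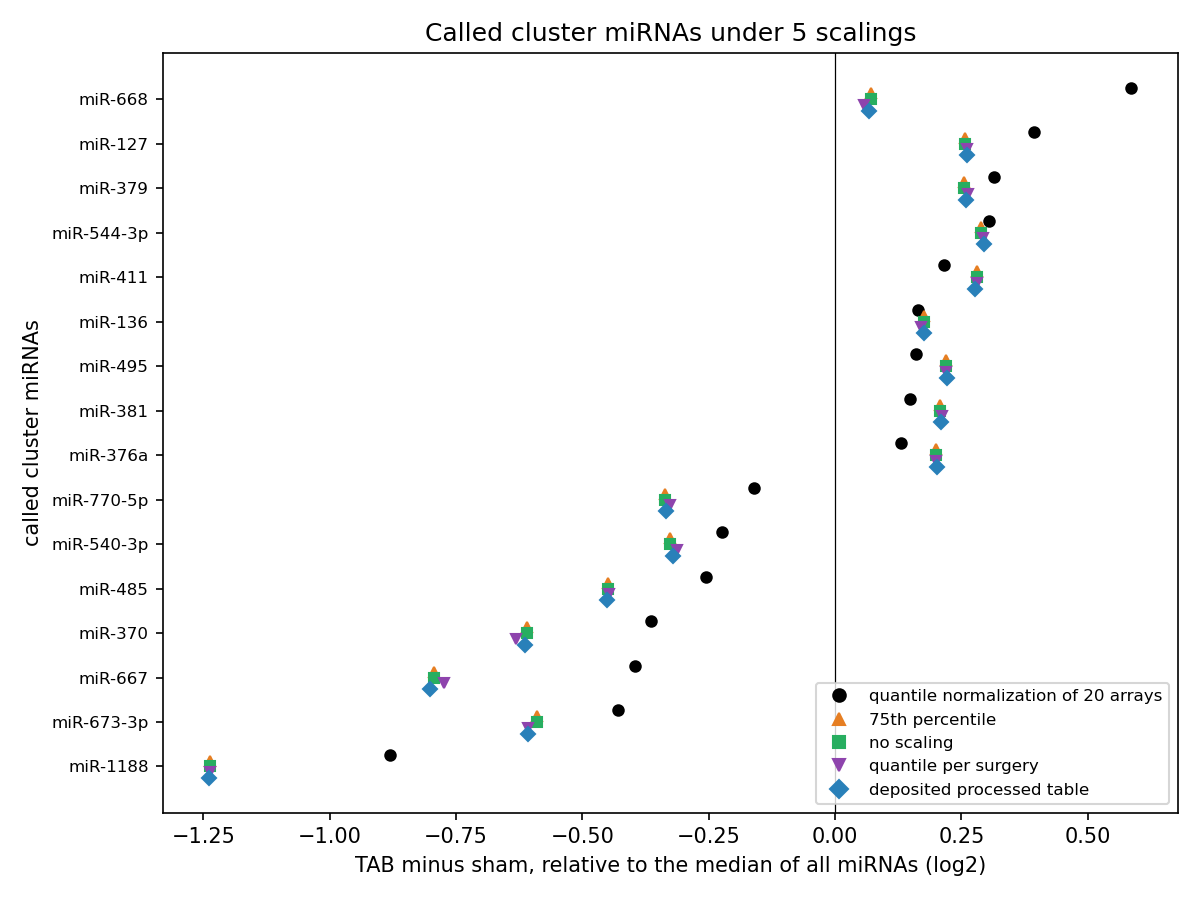
TAB minus sham difference relative to the median of all 928 miRNAs (log2) for the 16 called members under 5 scalings. miR-1188 is lowest under each, between -1.24 and -0.88, and miR-668 is at 0.59 only with quantile normalization.

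Markers of the cell types of the ventricle were read beside these results. Their calls are from quantile normalization of the 20 arrays, and the other scalings were not read for these lists. The background was 19.3% raised and 21.8% lowered among all miRNAs tested. Among miRNAs found on all 20 arrays it was 27.5% and 29.6%. Of 7 heart muscle miRNAs, which include miR-1a and miR-133a and were found on all 20 arrays, 2 were raised (miR-208b and miR-499) and 1 lowered (miR-378), with a summed intensity of 57227 to 87888 in TAB samples and 60422 to 99062 in sham samples. Of 4 fibroblast miRNAs 3 were raised (summed intensity 3979 to 5974 in TAB samples and 1226 to 1645 in sham samples), and of 7 white blood cell miRNAs 5 (1281 to 1617 in TAB samples and 880 to 1271 in sham samples). Of 4 vessel miRNAs 1 was raised (9720 to 14785 in TAB samples and 8534 to 13956 in sham samples), and of 3 red blood cell miRNAs 2 (1106 to 1360 in TAB samples and 975 to 1445 in sham samples). Of 4 miRNAs of neurons and brain, where cluster miRNAs are abundant, 1 was raised and 1 lowered (355 to 388 in TAB samples and 362 to 398 in sham samples), and none of them was found on all 20 arrays. The 1 skeletal muscle miRNA on the list was lowered (135 to 162 in TAB samples and 179 to 220 in sham samples), while 1 liver miRNA (81.7 to 111 in TAB samples and 102 to 354 in sham samples) and 5 epithelial miRNAs (396 to 424 in TAB samples and 393 to 408 in sham samples) did not pass the test. The part of these cells in the results for the cluster was not tested.

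Imprinted miRNAs of other loci were measured by 8 probes. By limma, 0 were raised and 3 lowered (background 19.3% and 21.8%), with a median difference of -0.21, and at an unadjusted p below 0.05 the counts were 1 and 4. The lowered ones were miR-483 (-0.54 ± 0.09, SE, adjusted p = 0.00664), which lies in Igf2, miR-296-3p (-0.36) and miR-298 (-0.24). These values are from quantile normalization of the 20 arrays, and the other scalings were not read for these probes. The mean of the 13 cluster members found on all 20 arrays was followed most closely, over the 10 samples, by miR-23a* (r = 0.944), miR-3102-5p.2 (r = 0.884) and miR-185* (r = 0.866), which were picked as the highest of all miRNAs outside the cluster.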

How the data were processed

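Per the study's methods, Cy5-labelled total RNA was hybridized to the Mouse & Rat miRNA OneArray and spots were read with GenePix. The deposited raw table held the intensity and flag of each spot, to which the authors had applied no background subtraction. A processed table, also deposited, gave each miRNA 1 intensity on every array. Per the methods, flagged miRNAs were removed, repeated spots combined by their median and quantile normalization applied, and it served as an alternative because its correlation with the raw table on the log2 scale was at least 0.999 on each array. Here the 3 spots of a probe were combined by their median, probes flagged on all spots of all arrays removed, and log2 values quantile-normalized over 20 arrays. TAB and sham were compared with limma 3.58.1 in R 4.3.3 (lmFit and eBayes, two-sided, Benjamini-Hochberg over 928 miRNAs, threshold 0.05), over the 5 days with day as a block (4 residual degrees of freedom), on each day over the 20 arrays (10 degrees), and late against early (3 degrees). A member found in only 1 group was given a fold against the lowest found miRNA of each array of the other group. The arrays give no counts of molecules, and 5 samples per surgery limit the precision. Members described singly were those past the threshold, found on at least 8 of the 10 arrays of a surgery, with both arms found, or extreme on a day or in the late against early test. miR-673-5p was added after its values were seen, as the other arm of a called member. The members and lists were chosen with earlier results of these data known. The scripts were tested on simulated data. Rat probes, which carry no names in the raw table, were not used. The alternatives covered scaling, background, filter, spot summary, day term, variance trend, replicate block and left-out arrays or days.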

Additional observations from a re-analysis of the deposited data

Results flagged for a closer look

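Among the 5 samples of a surgery, 1 sample stood apart from the rest by Dixon's test (gap over range above 0.71) in 8 of 148 groups, made up of the 48 cluster members and 26 star strands in TAB and in sham hearts. Chance gives about 1 in 20. In TAB hearts the highest samples were day 28 for miR-668* (6.71, next 6.55), day 14 for miR-539-5p (6.24, next 6.18) and day 5 for miR-376b* (6.24, next 6.18), on the log2 scale. In sham hearts the highest were day 14 for miR-758* (6.60, next 6.50), miR-134* (6.56, next 6.43) and miR-541* (6.26, next 6.17) and day 3 for miR-376b (6.36, next 6.21), and the lowest was day 3 for miR-544-5p (6.10, next 6.22). The sham day 14 arrays, which hold 3 of these 8 values, also lay apart on the first principal component of all miRNAs.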

How the results depend on the processing

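The counts of members were 9 raised and 7 lowered over the 5 days, and 15 and 15 on at least 1 day. With the 75th percentile scaling they were 36 and 2 over the 5 days, and 38 and 4 on at least 1 day. In the deposited processed table they were 36 and 2, and 42 and 5. With no scaling between arrays they were 0 and 21, and 1 and 35. With quantiles set per surgery they were 0 and 29, and 1 and 36. The scaling itself moved the median of all miRNAs and their counts over the 5 days, as given above. Shares of all miRNAs were not computed for the other alternatives. When only miRNAs found on at least 5 of 20 arrays were tested, 5 members were raised over the 5 days and 8 on at least 1 day, since fewer members entered. Without a day term 14 were lowered, and with a trended variance 11. With the 2 SD rule of the methods 2 were higher and 2 lower on at least 1 day. Leaving out the arrays numbered 1, those numbered 2, or any day gave 4 to 9 raised and 4 to 7 lowered. Background correction by normexp, no flag filter and the mean of the spots kept these counts within 1.5 times. No member passed the late against early test under any alternative run. For arrays that share a replicate number, the deviations of 45 pairs of samples had a median correlation of 0.07 (range -0.28 to 0.42). In 19 of these pairs it was above 0.1, so these values do not settle whether the numbers pair the samples. With the 20 arrays as samples, 17 members were raised and 14 lowered with the replicate block, and 17 and 14 without it. These 20-array fits count technical repeats as separate samples, so their higher counts lend the calls no further support. The replicate block in the day tests gave 18 raised and 16 lowered on at least 1 day. Single members turned sign as follows, where the cause beyond the scaling was not tested. With the 75th percentile scaling and in the processed table, the differences were 0.0621 and 0.0621 for miR-770-5p, 0.0279 and 0.0293 for miR-493, 0.17 and 0.17 for miR-770-3p, 0.37 and 0.38 for miR-337-5p, 0.21 and 0.20 for miR-323-5p, 0.24 and 0.23 for miR-329, 0.36 and 0.36 for miR-453, 0.073 and 0.0762 for miR-540-3p, and 0.16 and 0.15 for miR-679-5p. With no scaling and with quantiles set per surgery, they were -0.051 and -0.0656 for miR-494, -0.29 and -0.28 for miR-341, -0.25 and -0.25 for miR-300, -0.0717 and -0.0773 for miR-136, -0.31 and -0.31 for miR-134, -0.0484 and -0.0473 for miR-376a, -0.0395 and -0.0371 for miR-381, -0.18 and -0.19 for miR-668, and -0.0284 and -0.0291 for miR-495. The difference of miR-337-5p was 0.00151 under the stricter filter. When arrays or days were left out, it ranged from -0.0405 to 0.0237 for miR-337-5p, from -0.0959 to 0.0156 for miR-323-5p and from -0.0149 to 0.0544 for miR-134. Signal over background limits most members: 35 of 48 were not found on every array, and 5 samples of each surgery, 1 per day, bound the precision.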
